A study of Homo sapiens with 12 samples.

Results

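The comparison set K562 cells given either of 2 electron acceptors, 2 mM alpha-ketobutyrate (AKB) or 2 mM pyruvate for 24 h, against untreated K562 cells. K562 is an established human line from chronic myelogenous leukaemia, and the labels name no other agent and no engineered allele in any of the 3 groups. All were grown in RPMI medium with fetal bovine serum. All 12 of the 12 libraries of the series entered it: 4 untreated, 4 with AKB and 4 with pyruvate. Each acceptor carried equal weight in the pooled value, and both were read against the same 4 untreated libraries. A gene was counted in the common response when its pooled difference had a Benjamini-Hochberg adjusted p below 0.05 over all genes tested (edgeR's quasi-likelihood test) and its estimate had the same direction with each acceptor. Levels are counts scaled to library size (CPM, on totals adjusted by TMM), changes are log2 ratios of treated over untreated, and ± after a log2 change is its standard error. Nothing in the labels says that replicate libraries are from separate cultures, and the p-values therefore reflect library-to-library spread that may be technical.

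AKB and pyruvate are 2-oxo acids, and AKB is longer by a methylene group. Lactate dehydrogenase reduces either one while oxidising NADH to NAD+, so a cell supplied with them can dispose of electrons without the respiratory chain. ATF4 is a transcription factor whose translation rises when the kinases of the integrated stress response phosphorylate eIF2α, for example during amino acid shortage or mitochondrial stress. Its targets include enzymes that make serine, asparagine and cysteine, one-carbon enzymes of the mitochondrion, amino acid transporters and aminoacyl-tRNA synthetases. ATF4 binds DNA as a dimer with a C/EBP protein at composite elements that hold the core TGATGNAA.

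The promoters of 5 genes of the common response hold that core and are printed here because all 5 mRNAs were lower with both acceptors. RefSeq sequence (GRCh38.p14) from 250 bases before to 50 bases after the start was matched by symbol for 9938 of 13592 genes tested with a distinct name. Only the 250 bases before the start were searched. Windows of up to 100 bases are given 5′ to 3′ on the gene's strand, with the match in capitals. A match to TTGCATCA is the core read on the other strand.
ASNS, chr7:97872423-97872522, minus strand: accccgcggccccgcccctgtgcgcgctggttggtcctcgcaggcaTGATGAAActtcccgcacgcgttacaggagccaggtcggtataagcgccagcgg
CHAC1, chr15:40953221-40953315, plus strand: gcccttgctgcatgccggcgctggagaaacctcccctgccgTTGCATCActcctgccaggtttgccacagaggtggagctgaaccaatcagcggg
ATF3, chr1:212565170-212565269, plus strand: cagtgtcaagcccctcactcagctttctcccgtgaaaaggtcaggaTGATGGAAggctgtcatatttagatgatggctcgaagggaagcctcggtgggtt
MTHFD1L, chr6:150866311-150866410, plus strand: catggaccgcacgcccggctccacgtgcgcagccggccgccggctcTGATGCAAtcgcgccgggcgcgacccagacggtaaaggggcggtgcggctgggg
HERPUD1, chr16:56931920-56932019, plus strand: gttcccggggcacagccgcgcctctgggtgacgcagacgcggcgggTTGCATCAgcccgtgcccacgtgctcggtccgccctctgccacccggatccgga
The core stood on either strand in 141 of the 9938 promoters (1.42%), in 5 of the 52 available promoters of genes in the lower group (9.62%) and in 0 of the 25 of the higher group. Among the lowered ATF4 targets it was in 3 of 17 (17.6%). The E-box CACGTG, a palindrome searched in the same way, was in 8.96% of all promoters, in 6 of the 52 (11.5%) and in 1 of the 25 (4%). The MTHFD1L and HERPUD1 windows hold a CACGTG as well as the core. These matches describe letters in a short window and were tested against no binding data.

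Total counts per library ran from 15353200 to 21301073, and 13598 of the 17786 genes in the table passed the filter on low counts. Pyruvate replicates 3 and 4 stood apart. Their levels rose with the GC content of the transcript, by 0.337 and 0.363 log2 units per 10 percentage points relative to the mean library, against −0.151 to 0.00489 in the other 10 libraries. The summed level of 9 erythroid and progenitor markers of K562 was 13600 to 15400 CPM untreated, 14800 to 16800 with AKB and 11200 to 13200 with pyruvate. Of 15 markers of other cell types 12 were in the table and 8 were tested, none was called, and the sum was 466 to 506, 500 to 565 and 530 to 692 CPM. CD3E, CD79A and CD14, which mark T cells, B cells and monocytes, stayed below 1 CPM in all 12 libraries. In bulk RNA a smaller share of cells of a type and less RNA per cell cannot be told apart.

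With both acceptors, genes of amino acid synthesis and uptake fell, together with ATF4 itself, and a smaller and more mixed set rose. Of 13598 genes, 65 were lower (0.478%) and 34 higher (0.25%). The calls required the same direction with each acceptor, and both acceptors share the untreated libraries. At an unadjusted p below 0.05 there were 2659 genes. The median change was 1.43-fold in each direction. Of the lower genes 28 changed by at least 1.5-fold and 7 by at least 2-fold, and of the higher genes 14 and 5. As a description of genes chosen on these same libraries, all 8 treated libraries lay below all 4 untreated ones for 62 of the 65 lower genes and above them for 20 of the 34 higher genes. Over all genes tested the shares were 2.15% and 1.1%, and nothing is read from the difference.

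A stricter reading asked that a gene pass the test with AKB alone and with pyruvate alone. It kept 42 lower genes (0.309%) and 13 higher genes (0.0956%), all of them in the common response. The remaining lower genes were called with pyruvate only (14 genes) or AKB only (9 genes). The remaining higher genes were called with AKB only in 19 cases and with pyruvate only in 2. Over all genes, 1.97% were called with AKB and 1.95% with pyruvate. Being called with 1 acceptor does not show a difference between them, and that difference was tested separately.

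The count of higher genes moved with several single libraries. It was 13, 13 and 6 without untreated replicates 1, 2 and 3, 20, 22 and 17 without AKB replicates 2, 3 and 4, and 268 and 165 without pyruvate replicates 1 and 2. The count of lower genes was 36, 35 and 32 without the same 3 untreated libraries, and 210 and 166 without pyruvate replicates 1 and 2. Without pyruvate replicates 3 and 4 together the counts were 126 higher and 229 lower, and 32 of the 34 and 65 of the 65 kept their call. With an offset for GC content in each library they were 346 and 423, and 29 of the 34 and 62 of the 65 kept theirs.

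**Figure D1:**
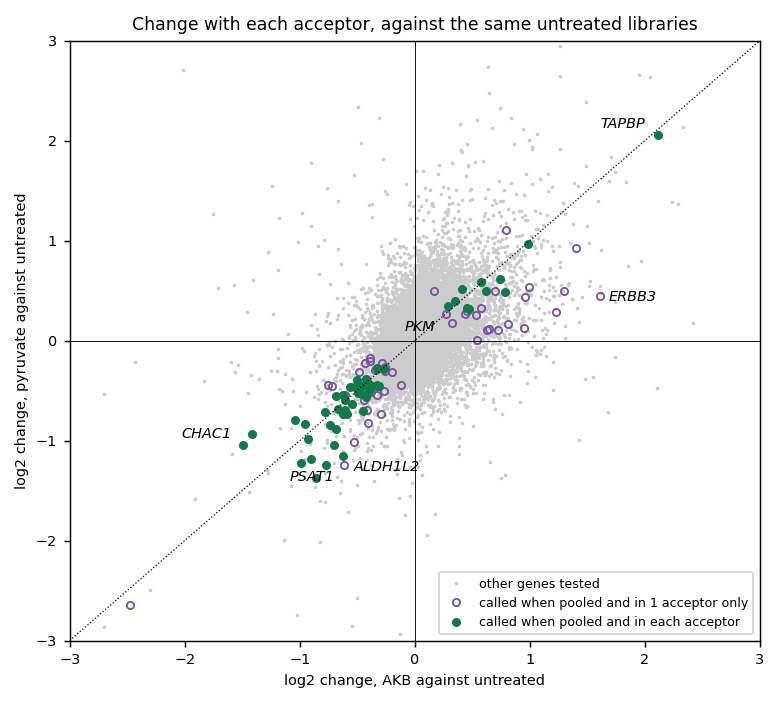
Log2 change with AKB (x axis) and with pyruvate (y axis) for genes tested, each against the same 4 untreated libraries, so the axes share their controls. Filled points are the genes called when pooled and in each acceptor, rings those called when pooled and in 1 acceptor only, and the dotted line marks equal change. ERBB3 (1.61 with AKB and 0.45 with pyruvate) lies to the right of that line. Of the 65 lower genes 4 had a called difference between acceptors, among them ALDH1L2 (−0.62 with AKB and −1.155 with pyruvate), which lies below the line. Outside the plotted range of 3 log2 units fall 37 genes, 2 of them in the common response.

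The list of ATF4 targets held more of the lower genes than any other list. Of 42 targets listed, 39 were tested, 20 were lower (51.3%, against 0.478% of all genes) and 0 were higher. The median log2 change of the 39 was −0.45, against 0.00 for all genes tested. For 22 of the 39, all 8 treated libraries lay below all 4 untreated ones, against 2.15% of all genes. The list was chosen with earlier results of these data known. With each acceptor alone 19 of the 20 passed the test, SLC7A5 being the exception. Leaving out 1 library at a time gave between 16 and 23 lower targets.

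ATF4 mRNA itself, from chr22:39519695-39522685, was at 356, 332, 333 and 344 CPM in the untreated libraries, at 240.3, 247, 238 and 239 with AKB and at 230.1, 249, 282 and 276 with pyruvate. The highest treated library lay under the lowest untreated one. Its pooled log2 change was −0.45 ± 0.06 (SE; adjusted p = 0.00163), a fall of 1.36-fold. CEBPG, which encodes a dimer partner of ATF4, was at 85.9, 87.0, 87.6 and 83.2 CPM in the untreated libraries, at 64.6, 59.7, 62.1 and 57.3 with AKB and at 62.1, 63.5, 55.5 and 57.6 with pyruvate, again with no overlap. CEBPG fell by 0.51 on the log2 scale (adjusted p = 0.000455). ATF3, another bZIP factor that ATF4 activates, was at 16.1, 17.1, 15.0 and 17.1 CPM in the untreated libraries, at 8.42, 9.02, 8.26 and 8.09 with AKB and at 9.24, 8.54, 10.1 and 8.77 with pyruvate. The fall in ATF3 was 1.85-fold, and its change was −0.95 with AKB and −0.83 with pyruvate. DDIT3, the stress-induced factor CHOP, was not called, with a log2 change of −0.25 ± 0.09 (SE; adjusted p = 0.168) and 19.5, 24.8, 21.6 and 20.3 CPM with pyruvate against 25.1, 23.6, 23.6 and 23.5 untreated. TRIB3, a pseudokinase that binds ATF4, fell by 0.50 (adjusted p = 0.00158), from 123 ± 3.27 CPM to 89.3 ± 2.01 with AKB and 84.5 ± 8.97 with pyruvate (SD, n = 4 each).

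Of the enzymes that make serine and asparagine, PSAT1, PHGDH and ASNS fell with both acceptors. PSAT1, phosphoserine aminotransferase of serine synthesis (GENCODE 29, chr9:78297143-78330093), was at 213, 207, 209.7 and 196 CPM in the untreated libraries, at 107, 99.9, 106 and 102 with AKB and at 97.7, 97.3, 82.8 and 75.9 with pyruvate. Each treated library held less than any untreated library, with pyruvate replicates 3 and 4 lowest. The pooled change was −1.11 ± 0.07 (SE; adjusted p = 1.18e-05), or 2.15-fold, and was −0.99 with AKB and −1.22 with pyruvate. PHGDH, which catalyses the first committed step of the same pathway, fell 1.58-fold, with means of 52.5 ± 1.74 CPM untreated, 34.9 ± 1.43 with AKB and 31.5 ± 5.48 with pyruvate (SD, n = 4 each). PSPH, the last enzyme of the pathway, also had all 8 treated libraries below the untreated ones but missed the threshold, with a log2 change of −0.35 ± 0.08 (SE; adjusted p = 0.0781). ASNS, asparagine synthetase (chr7:97852118-97872542), was at 416, 384, 390.0 and 350.5 CPM in the untreated libraries, at 209.5, 204, 206 and 206 with AKB and at 184, 198, 147 and 147 with pyruvate. The AKB libraries lay within 204 to 209.5 CPM and the pyruvate libraries lower still. Its log2 change was −1.04 ± 0.08 (SE; adjusted p = 6.98e-05). Reads of ASNSP1, an ASNS pseudogene counted at 5.79 ± 0.368 CPM untreated and 2.17-fold lower when treated, cannot be told from those of ASNS with certainty.

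Of the mitochondrial one-carbon enzymes, ALDH1L2, MTHFD2 and MTHFD1L fell with both acceptors. In the list of serine, glycine and folate enzymes 21 of 24 were tested. Of these, 5 were lower (23.8%, against 0.478% of all genes) with 0 higher: PSAT1, PHGDH, ALDH1L2, MTHFD2 and MTHFD1L. Leaving out 1 library at a time gave 4 to 8 lower members, with 8 without pyruvate replicate 1 or 2, and there were 10 without pyruvate replicates 3 and 4 together, 9 with the GC-content offset and 8 by DESeq2's Wald test. The list's median log2 change was −0.15, and 17 of the 21 estimates were below 0. ALDH1L2, the mitochondrial 10-formyltetrahydrofolate dehydrogenase, was at 35.9, 39.8, 35.8 and 34.2 CPM in the untreated libraries, at 23.7, 23.4, 25.3 and 22.1 with AKB and at 19.2, 16.6, 15.5 and 14.2 with pyruvate. Its 3 groups did not overlap, the pyruvate libraries lying under the AKB libraries. MTHFD2, which oxidises methylene-tetrahydrofolate in mitochondria, fell from 323 ± 8.59 CPM to 245 ± 13.3 with AKB and 228 ± 28.3 with pyruvate (SD, n = 4 each). MTHFD1L, the formate-producing enzyme whose promoter window is printed above, changed by −0.41 ± 0.05 log2 units (SE; adjusted p = 0.00111). Its levels were 170.0, 157, 154 and 152 CPM untreated and between 112 and 124 in the treated libraries. The cytosolic partners were not called: MTHFD1 had a log2 change of −0.03 (adjusted p = 0.71) and SHMT1 one of 0.03 (adjusted p = 0.977). SHMT2, the mitochondrial serine hydroxymethyltransferase, had a log2 change of −0.20 (adjusted p = 0.184).

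Some genes of cystine import, cysteine synthesis and glutathione breakdown were lower, while those of glutathione synthesis were not called. All 21 of the list were tested and 5 were lower (23.8%, against 0.478% of all genes). These were CHAC1, SLC7A11, CTH, SLC1A4 and SLC3A2, all of which are also on the ATF4 list. The list's median log2 change was −0.05, and 9 of the 21 estimates were above 0. CHAC1, an enzyme that degrades glutathione (chr15:40952962-40956519), had the largest fall of a gene with a symbol, and was at 9.20, 9.85, 7.86 and 9.65 CPM in the untreated libraries, at 1.99, 2.96, 3.46 and 4.51 with AKB and at 4.09, 3.07, 5.30 and 5.23 with pyruvate. Every treated library was under 6 CPM and every untreated one above 7. The change was −1.27 ± 0.19 (SE; adjusted p = 0.00788), a 2.41-fold fall at a low level. SLC7A11, the cystine carrier of system xc−, was at 113, 103, 104 and 93.1 CPM in the untreated libraries, at 65.1, 58.4, 61.6 and 57.0 with AKB and at 53.4, 47.4, 38.4 and 35.0 with pyruvate. Pyruvate replicates 3 and 4 held the lowest levels, and the pooled change of −1.01 was −0.90 without them. CTH, cystathionine gamma-lyase, which releases cysteine and AKB from cystathionine, was at 33.9, 30.1, 32.6 and 29.9 CPM in the untreated libraries, at 19.7, 18.0, 18.7 and 21.4 with AKB and at 16.5, 15.0, 15.5 and 14.3 with pyruvate. It fell 1.83-fold (adjusted p = 6.98e-05), with no overlap between any pair of the 3 groups. GCLC and GCLM, the subunits of the enzyme that starts glutathione synthesis, had log2 changes of −0.03 (adjusted p = 0.727) and −0.13 (adjusted p = 0.392). CBS, the enzyme before CTH in transsulfuration, had a log2 change of 0.02 (adjusted p = 0.874).

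Several amino acid transporters fell. SLC7A5, the large neutral amino acid carrier, was at 339, 364, 348 and 377 CPM in the untreated libraries, at 190.1, 226, 222 and 211 with AKB and at 242, 206, 290.0 and 310.1 with pyruvate. The 2 pyruvate libraries that stood apart were the highest of the treated ones, and the log2 change was −0.60 with them (adjusted p = 0.00963) and −0.71 without them. SLC3A2, the heavy chain that partners both SLC7A5 and SLC7A11, fell by 0.51 (adjusted p = 0.000862). SLC1A4, a neutral amino acid exchanger, was at 77.2, 76.8, 77.9 and 76.4 CPM in the untreated libraries, at 54.5, 49.6, 55.8 and 51.9 with AKB and at 50.2, 47.0, 50.6 and 51.0 with pyruvate. Its untreated libraries spanned 76.4 to 77.9 CPM and its change was −0.59 ± 0.05 (SE; adjusted p = 9.68e-05). SLC7A1, a carrier of cationic amino acids, changed by −0.49 log2 units (adjusted p = 0.000435), and SLC38A1, a glutamine carrier that was not on the list, by −0.45 (adjusted p = 0.0195). SLC38A2, SLC1A5 and SLC6A9 were not called, with log2 changes of −0.32 (adjusted p = 0.164), −0.18 (adjusted p = 0.387) and −0.28 (adjusted p = 0.35).

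Further ATF4 targets with other roles were lower. DDIT4, an inhibitor of the growth kinase mTORC1 (chr10:72273920-72276036), was at 156, 171, 161 and 180.3 CPM in the untreated libraries, at 59.1, 64.6, 65.9 and 60.1 with AKB and at 65.7, 58.3, 114 and 110.1 with pyruvate. The treated libraries fell into a lower set of 6 and a higher pair, pyruvate replicates 3 and 4, and all 8 were under the untreated ones. The pooled change of −1.18 ± 0.15 (SE; adjusted p = 0.00227) became −1.42 without that pair. STC2, a secreted glycoprotein, and INHBE, an inhibin beta subunit, fell 1.73-fold and 1.89-fold. PCK2, the mitochondrial phosphoenolpyruvate carboxykinase, was at 58.4, 59.0, 58.7 and 58.6 CPM in the untreated libraries, at 35.8, 40.9, 39.5 and 36.1 with AKB and at 28.3, 28.0, 40.8 and 43.5 with pyruvate. It was −0.68 on the log2 scale with all libraries and −0.84 without pyruvate replicates 3 and 4. The other 19 targets tested were not called, and 14 of these had estimates below 0. The highest of the 19 was PPP1R15A, the stress-induced phosphatase subunit that acts on eIF2α, with a log2 change of 0.40 (adjusted p = 0.307). GDF15, a secreted stress cytokine, had a log2 change of −0.32 ± 0.14 (SE; adjusted p = 0.245). It was called without pyruvate replicates 3 and 4, with a log2 change of −0.50 (adjusted p = 0.0286).

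**Figure D2:**
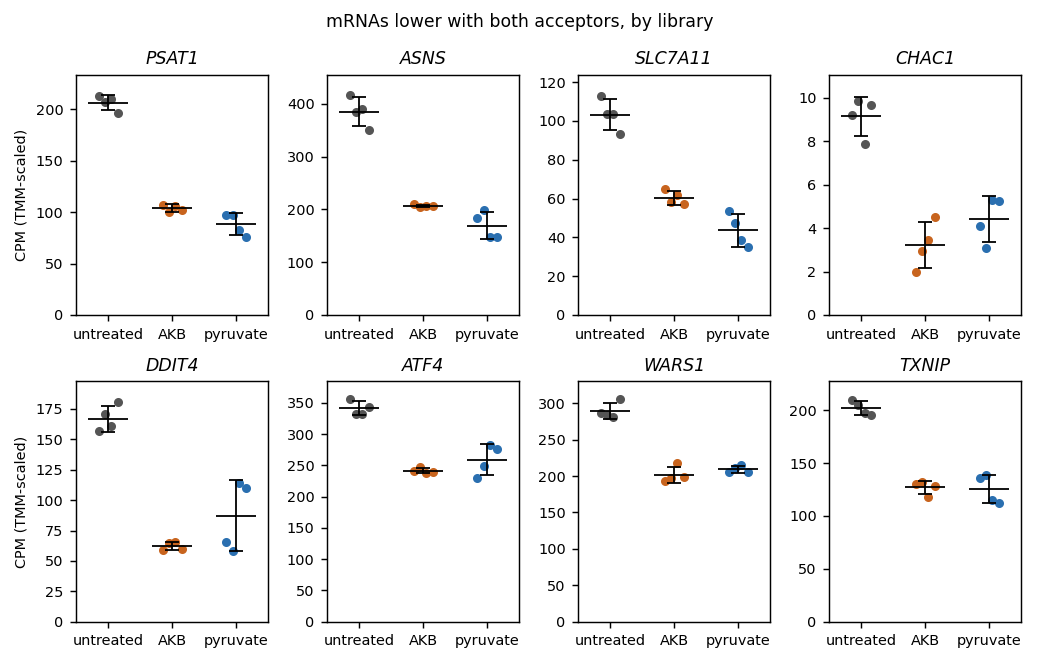
CPM (y axis, from 0) in each of the 12 libraries for 8 mRNAs that were lower with both acceptors, grouped as untreated, AKB and pyruvate. Points are libraries in replicate order and bars give mean ± SD of 4. In all 8 panels each treated library lies below each untreated one, and DDIT4 with pyruvate splits into 65.7 and 58.3 against 114 and 110.1 CPM.

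Cytosolic aminoacyl-tRNA synthetases, which charge tRNAs with amino acids, were lower in part. All 20 listed were tested, 5 were lower (25%, against 0.478% of all genes) and 0 higher: CARS1, WARS1, MARS1, GARS1 and YARS1. The median log2 change was −0.21. All 8 treated libraries were below the untreated ones for 11 of the 20, against 2.15% of all genes. Of these, 6 were not called, among them TARS1 with a log2 change of −0.23 (adjusted p = 0.0521) and AARS1 with a log2 change of −0.24 (adjusted p = 0.0715). WARS1, for tryptophan, was at 286, 284, 281 and 306 CPM in the untreated libraries, at 193, 198, 217 and 199 with AKB and at 206, 210.5, 215 and 206 with pyruvate. The treated groups overlapped each other and not the untreated group. CARS1, for cysteine, changed by −0.59 ± 0.06 log2 units (SE; adjusted p = 0.000284), and MARS1, for methionine, by −0.45 ± 0.05 (SE; adjusted p = 0.00102). GARS1, for glycine, fell from 403 ± 12.9 CPM to 311 ± 13.5 and 294 ± 36.5 (SD, n = 4 each). YARS1 was called with AKB (−0.39, adjusted p = 0.00917) and not with pyruvate (−0.20, adjusted p = 0.0915), and the difference between acceptors was −0.19 (95% interval −0.33 to −0.05, adjusted p = 0.102). Estimates above 0 without a call were seen for 6 synthetases, such as HARS1 with a log2 change of 0.22 (adjusted p = 0.154). The count of lower synthetases was 3 without any 1 of the 4 untreated libraries, and 9 and 10 without pyruvate replicates 1 and 2.

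TXNIP and ARRDC4 are alpha-arrestins that restrain glucose uptake and are induced by the glucose sensor MondoA. They were the 2 of 15 tested members of the MondoA list called lower (13.3%, against 0.478% of all genes). None was called higher, the list's median log2 change was 0.04, and 9 of the 15 estimates were above 0. TXNIP (chr1:145992435-145996600) was at 209.5, 205, 197 and 196 CPM in the untreated libraries, at 130.5, 132, 118 and 128 with AKB and at 135, 139, 115 and 113 with pyruvate. The ranges with AKB and pyruvate overlapped, both lying well under the untreated range. Its log2 change was −0.68 ± 0.06 (SE; adjusted p = 0.000256), and was −0.67 with AKB and −0.68 with pyruvate. ARRDC4 was at 30.0, 36.4, 28.6 and 31.5 CPM in the untreated libraries, at 20.6, 22, 20.2 and 15.9 with AKB and at 24.7, 20.9, 22 and 18.5 with pyruvate. All 8 treated values were under the lowest untreated one, for a 1.54-fold fall. ARRDC3, a related arrestin, had a log2 change of −0.29 (adjusted p = 0.154). MLXIP, which encodes MondoA, and its partner MLX had log2 changes of 0.07 (adjusted p = 0.597) and 0.03 (adjusted p = 0.734).

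HERPUD1 and XBP1 fell among 27 tested genes of the unfolded protein response of the endoplasmic reticulum, and 0 were called higher. These 2 were 7.41% of the list, against 0.478% of all genes, and 15 of the 27 estimates were above 0. The count of higher members depended on the analysis: it was 6 without pyruvate replicate 1, by DESeq2's Wald test and with the GC-content offset, 4 without pyruvate replicates 3 and 4 together, 2 without pyruvate replicate 2 and 1 with the replicate block. HERPUD1, a membrane protein of the degradation machinery, was at 40.7, 36.8, 39.8 and 34.0 CPM in the untreated libraries, at 27.1, 24.4, 24.1 and 23.6 with AKB and at 23.9, 26.1, 26.5 and 23.9 with pyruvate. It fell 1.52-fold with no overlap (adjusted p = 0.000725). XBP1, the transcription factor spliced by IRE1, changed by −0.39 ± 0.05 log2 units (SE; adjusted p = 0.00204); its spliced form was not measured here. The chaperone HSPA5, the usual marker of this response, had a log2 change of 0.08 (adjusted p = 0.362). CALR and DNAJB11, both lumenal chaperones, had all 8 treated libraries above the untreated ones without a call, with log2 changes of 0.30 (adjusted p = 0.0866) and 0.24 (adjusted p = 0.071).

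The other lower genes spread over many roles. These were chosen for naming after their values were seen, apart from CD69, RUNX1, NDUFB2 and FDFT1. CD69, an early activation antigen of lymphocytes, was at 11.3, 12.8, 15.7 and 11 CPM in the untreated libraries, at 5.79, 7.78, 7.85 and 5.31 with AKB and at 6.99, 7.52, 6.16 and 5.09 with pyruvate. It fell 1.94-fold. PMAIP1, the pro-apoptotic BH3 protein NOXA, changed by −0.79 ± 0.10 log2 units (SE; adjusted p = 0.0023), and its levels went from 31.5 ± 2.76 CPM to 19.6 ± 1.59 and 17.1 ± 3.03 (SD, n = 4 each). SOX5, a transcription factor of chondrocytes and neurons, had a log2 change of −0.74 ± 0.08 (SE; adjusted p = 0.000679). RUNX1, a regulator of blood cell formation, was at 106, 115, 109 and 104 CPM in the untreated libraries, at 88.7, 88.1, 88.1 and 84.5 with AKB and at 88.7, 78.5, 71.7 and 77.8 with pyruvate. The fall was 1.31-fold with no overlap. Of the other 7 tested megakaryocyte genes 0 were called, where 0.478% of all genes were lower and 0.25% higher. FOXO3, a forkhead factor, was called with pyruvate only, and its AKB libraries (50.1, 51.6, 50.3 and 47.7 CPM) overlapped the untreated ones (55.2, 57.2, 49.9 and 54.4).

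Smaller falls with tight replicates included GRB10, an adaptor of insulin receptor signalling, with a log2 change of −0.42 (adjusted p = 0.000841), and NIBAN1, a stress-induced protein, with a log2 change of −0.38 (adjusted p = 0.00547). COLGALT2, a collagen galactosyltransferase, had a log2 change of −0.49 (adjusted p = 0.00171) and the linker histone H1-2 one of −0.30 (adjusted p = 0.0249). The H1-2 call was lost when any 1 untreated library was left out. NDUFB2, a subunit of respiratory complex I, fell by 0.31 (adjusted p = 0.0282), and NDUFS5, another subunit, rose by 0.33 (adjusted p = 0.0451). The other 35 of the 37 complex I subunits tested were not called. The share was 2.7% lower and 2.7% higher, against 0.478% and 0.25% of all genes. FDFT1, squalene synthase, was the 1 of 26 cholesterol genes called (3.85%, against 0.478% of all genes), with a log2 change of −0.77 (adjusted p = 0.0338). Its groups overlapped, since AKB replicate 1 was at 40.4 CPM and the lowest untreated library was also at 40.4. CLIC4, a chloride channel protein, and MBNL2, a splicing regulator, were lowest in pyruvate replicates 3 and 4. Their changes of −0.56 and −0.61 were −0.43 and −0.46 without that pair.

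**Figure D3:**
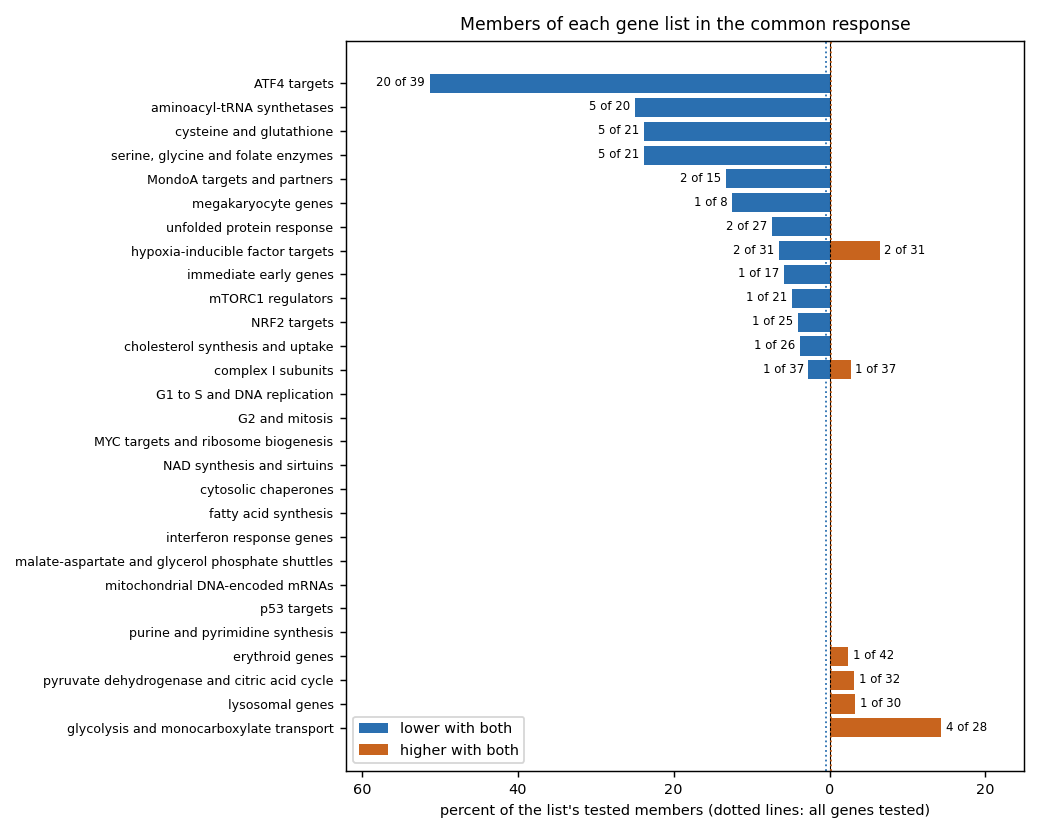
Percent of tested members (x axis) that were lower (left) or higher (right) with both acceptors in each of 28 gene lists, with counts beside the bars. Dotted lines mark 0.478% lower and 0.25% higher over all genes tested. ATF4 targets reach 20 of 39 lower, glycolysis 4 of 28 higher, and 11 lists have 0 members called.

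Among the rises, genes of glycolysis were the only list with more than 2 members called. Of 28 genes of glycolysis and monocarboxylate transport, all tested, 4 were higher (14.3%, against 0.25% of all genes) and 0 lower: PKM, ALDOC, PFKFB4 and ENO2. The median log2 change was 0.10. PKM, pyruvate kinase (chr15:72199029-72231822), was at 498, 508, 491 and 502 CPM in the untreated libraries, at 615, 614, 573 and 633 with AKB and at 576, 646, 657 and 663 with pyruvate. The untreated libraries lay within 491 to 508 CPM and every treated library above them, for a rise of 1.25-fold, or a log2 change of 0.32 ± 0.05 (SE; adjusted p = 0.00788). ALDOC, a minor aldolase, was at 58.9, 56.2, 55.2 and 60.7 CPM in the untreated libraries, at 67.9, 77.9, 70.8 and 77.6 with AKB and at 71.8, 72.1, 79.7 and 79.7 with pyruvate. It rose 1.29-fold, and its log2 change was 0.35 with AKB and 0.39 with pyruvate. PFKFB4, which makes and removes the allosteric activator of phosphofructokinase, was called with AKB only, and was at 21.4, 22.6, 21.8 and 21.3 CPM in the untreated libraries, at 34.1, 32.3, 30.3 and 33.5 with AKB and at 23.8, 25.7, 30.1 and 29.7 with pyruvate. All 8 treated libraries were above the untreated ones, by 0.45 on the log2 scale. ENO2, the neuronal enolase, rose mainly with AKB: its change was 0.81 with AKB and 0.16 with pyruvate, and the acceptors differed by 0.65 (95% interval 0.46 to 0.84, adjusted p = 0.00613). No member of the list was called without untreated replicate 3, and 2 were called without untreated replicate 1 or 2.

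The lactate dehydrogenase genes LDHA and LDHB, the carrier gene SLC16A1 and the kinase gene PDK1 were not called. LDHA, the main subunit of lactate dehydrogenase, was at 1013, 1009, 1007 and 944 CPM in the untreated libraries, at 997, 919, 934 and 969.6 with AKB and at 1067, 1091, 883 and 829 with pyruvate. The groups overlapped, and the pooled change was −0.05 (95% interval −0.20 to 0.10, adjusted p = 0.697). LDHB, the other subunit, had a log2 change of −0.02 (adjusted p = 0.899). SLC16A1, the monocarboxylate carrier MCT1, had a log2 change of −0.16 (adjusted p = 0.336), with pyruvate replicates 3 and 4 at 257 and 248 CPM and the lowest of the other 10 at 321. PDK1, a kinase that inhibits pyruvate dehydrogenase, had a log2 change of −0.10 (adjusted p = 0.461). Of 32 genes of pyruvate dehydrogenase and the citric acid cycle 1 was higher (3.12%, against 0.25% of all genes). This was IDH2, the mitochondrial NADP-dependent isocitrate dehydrogenase, with a log2 change of 0.39 (adjusted p = 0.0338). The IDH2 estimate was 0.54 with AKB and 0.25 with pyruvate. In the malate-aspartate and glycerol phosphate shuttles, which carry cytosolic reducing equivalents to mitochondria, 0 of 10 were called. Of the 10 estimates 9 were below 0, with a median of −0.10 against 0.00 for all genes tested. The 13 mRNAs of mitochondrial DNA were not called either, with a median of 0.16. With 0.478% of all genes lower and 0.25% higher, 0 of 10 and 0 of 13 are near the background. These counts are no result about the genes.

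Outside glycolysis the genes that rose with each acceptor had varied roles. HEXIM1, an inhibitor of the transcription elongation factor P-TEFb, was at 54.4, 52.3, 52.2 and 54.3 CPM in the untreated libraries, at 73.7, 73.4, 63.4 and 72.6 with AKB and at 62.3, 75.4, 84.8 and 81.9 with pyruvate. All treated libraries were above the untreated range, and the change was 0.46 ± 0.08 (SE; adjusted p = 0.0185). CTSB, the lysosomal protease cathepsin B, was at 53, 48.7, 51.6 and 56.8 CPM in the untreated libraries, at 75.9, 71.6, 67.0 and 77.0 with AKB and at 61.0, 67.2, 68.2 and 64.3 with pyruvate. It rose 1.31-fold, the 1 call among 30 lysosomal genes (3.33%, against 0.25% of all genes). ECM1, a secreted matrix protein, was at 15.4, 17.3, 16.1 and 17.7 CPM in the untreated libraries, at 23.5, 27.4, 24.5 and 26.8 with AKB and at 22.6, 20.6, 26.3 and 24.3 with pyruvate. The rise was 1.47-fold (adjusted p = 0.00602) with no overlap. CCDC136, a coiled-coil protein, had the smallest adjusted p of the higher genes with a symbol, and was at 20.1, 18.9, 19.6 and 18.0 CPM in the untreated libraries, at 29.5, 37.8, 31.4 and 33.5 with AKB and at 24.5, 28.4, 26.8 and 27.4 with pyruvate. Its change was 0.64 ± 0.08 (SE; adjusted p = 0.00122), and was 0.79 with AKB and 0.49 with pyruvate. SH3BP5, which binds the kinase BTK, changed by 0.39 log2 units (adjusted p = 0.00995).

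**Figure D4:**
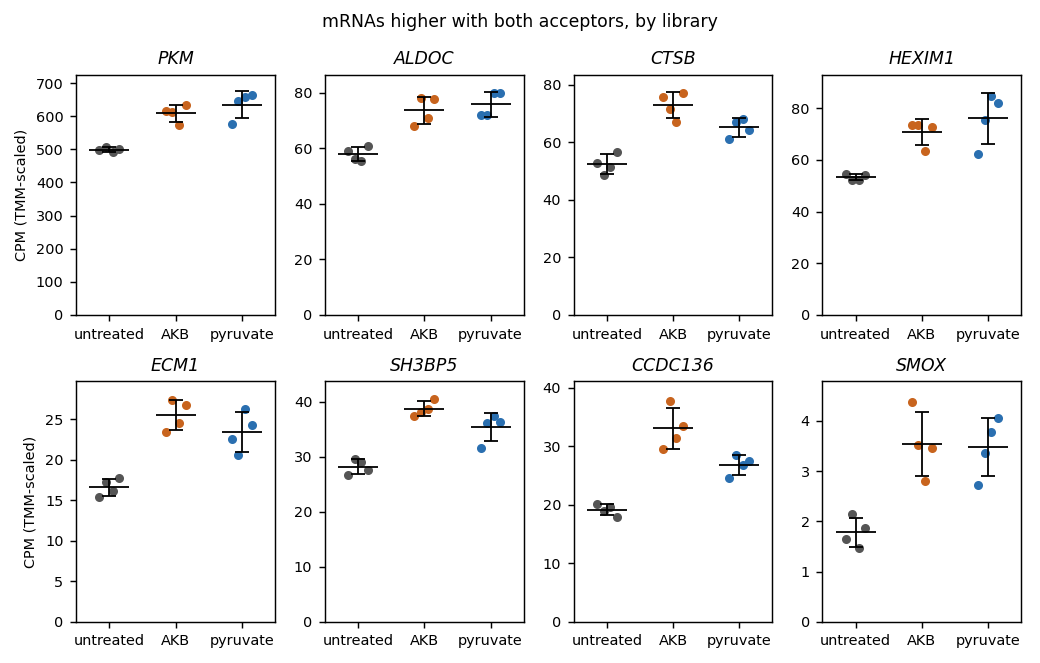
CPM (y axis, from 0) by library for 8 mRNAs that were higher with each acceptor, grouped as untreated, AKB and pyruvate. Points are libraries in replicate order and bars give mean ± SD of 4. All 8 treated libraries lie above the 4 untreated ones in every panel, and the pyruvate libraries of HEXIM1 run from 62.3 to 84.8 CPM.

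Some rises rest on few reads or on sequences with close copies. SMOX, spermine oxidase, was at 1.65, 2.14, 1.46 and 1.87 CPM in the untreated libraries, at 4.37, 3.52, 2.81 and 3.46 with AKB and at 2.72, 3.37, 3.79 and 4.06 with pyruvate. It rose 1.97-fold with similar estimates for both acceptors (0.99 with AKB and 0.97 with pyruvate). TAPBP, the peptide-loading factor tapasin, was at 0.386, 0.918, 0.217 and 1.09 CPM in the untreated libraries, at 3.47, 3.15, 2.17 and 2.47 with AKB and at 1.66, 1.80, 3.89 and 3.41 with pyruvate. It is encoded in the major histocompatibility region, of which genome releases hold alternate copies, so its level is uncertain. NBPF10 belongs to a family of near-identical copies and its 1.5-fold rise is uncertain for the same reason. CALML4, a calmodulin-like protein, and MAP4K2, a protein kinase, changed by 0.95 log2 units (adjusted p = 0.0207) and 0.60 (adjusted p = 0.0438). Among identifiers without a symbol, 3 were higher and 3 lower, and 5 of the 6 had no entry in GENCODE 29. ENSG00000275619 was at 0.0551, 0, 0 and 0 CPM in the untreated libraries, at 4.24, 1.24, 4.28 and 9.69 with AKB and at 11.1, 6.25, 9.14 and 13.2 with pyruvate. ENSG00000277781 was at 0, 0, 0 and 0.603 CPM in the untreated libraries, at 3.47, 5.06, 4.04 and 3.40 with AKB and at 3.49, 1.62, 3.48 and 4.06 with pyruvate. Both were at or near 0 in untreated cells and present in all 8 treated libraries. In the other direction ENSG00000236222 was at 8.49, 11.6, 8.30 and 3.80 CPM in the untreated libraries, at 0.643, 0.741, 3.51 and 0.803 with AKB and at 0.414, 0.661, 1.72 and 2.24 with pyruvate.

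The 2 compounds, a single pair at matched dose and time, were compared directly for the size of each common change. Of all genes 3.13% differed between AKB and pyruvate, and of the 99 common genes 14 did. Of the 34 higher genes 10 differed, 9 with the larger rise in AKB, NDUFS5 being the exception. Of the 65 lower genes 4 differed, each with the larger fall in pyruvate: ALDH1L2, CTH, RWDD2B and FOXO3. Transcript GC content was 42.1% for ALDH1L2, 43.3% for CTH and 42.3% for RWDD2B, against a median of 48.1% for all genes tested. Pyruvate replicates 3 and 4, whose levels rose with GC content, were lowest for ALDH1L2 and RWDD2B. For CTH, pyruvate replicate 2 lay below replicate 3. Whether the 14 differences hold without pyruvate replicates 3 and 4 or with the GC-content offset was not tested. Among 79 common genes with a symbol and no called difference, the 95% interval lay within 0.5 log2 units of 0 on both sides for 64, which bounds a difference without showing that the compounds act alike. TXNIP is among these, at 0.02 (95% interval −0.15 to 0.18, adjusted p = 0.893), as is PKM, at −0.06 (95% interval −0.18 to 0.06, adjusted p = 0.495). SLC7A11 and DDIT4 were less well bounded, at 0.48 (95% interval 0.22 to 0.73, adjusted p = 0.0503) and −0.48 (95% interval −0.88 to −0.08, adjusted p = 0.141), AKB minus pyruvate.

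ERBB3, a receptor tyrosine kinase of the EGF receptor family, had the largest such difference. It was at 2.20, 2.88, 2.60 and 3.08 CPM in the untreated libraries, at 6.04, 8.46, 8.84 and 9.51 with AKB and at 3.79, 3.31, 3.38 and 4.20 with pyruvate. With pyruvate it lay just above the untreated range and with AKB well above both. AKB minus pyruvate was 1.16 (95% interval 0.80 to 1.52, adjusted p = 0.00799). CORO1A, an actin-binding protein of blood cells, was at 2.65, 3.00, 2.77 and 2.90 CPM in the untreated libraries, at 7.14, 6.11, 6.74 and 6.54 with AKB and at 2.90, 3.19, 4.09 and 3.59 with pyruvate. Its pyruvate libraries overlapped the untreated ones, and the acceptors differed by 0.94 (95% interval 0.65 to 1.24, adjusted p = 0.00799). PPP1R16B, a regulatory subunit of protein phosphatase 1, was at 10.4, 10.7, 9.60 and 8.99 CPM in the untreated libraries, at 18.8, 20.3, 17.6 and 20.1 with AKB and at 9.53, 10.9, 11.1 and 11.8 with pyruvate. The same overlap was seen, with a difference of 0.82 (95% interval 0.61 to 1.03, adjusted p = 0.00262). In the lower group ALDH1L2 and CTH, described above, differed by 0.53 (95% interval 0.33 to 0.74, adjusted p = 0.0159) and 0.34 (95% interval 0.17 to 0.52, adjusted p = 0.0461). RWDD2B was at 21.2, 19.8, 20.3 and 20.3 CPM in the untreated libraries, at 16.2, 17.2, 15.5 and 17.6 with AKB and at 13.7, 14.2, 10.6 and 10.6 with pyruvate, and differed by 0.44 (95% interval 0.20 to 0.67, adjusted p = 0.049). The NDUFS5 estimate was larger with pyruvate, a log2 change of 0.49 against 0.17.

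APOE, AHNAK, NAV1, GMPR and FZD4, named after their values were seen, also passed the pooled test, with a larger change in AKB. APOE, a lipid carrier, was at 13.8, 17.3, 14.4 and 17.0 CPM in the untreated libraries, at 35.9, 41.6, 40.5 and 36.0 with AKB and at 17.8, 16.1, 27.9 and 26.2 with pyruvate. Pyruvate replicates 1 and 2 lay in or near the untreated range and replicates 3 and 4 above it. NAV1, a microtubule-associated protein, had a pyruvate estimate of 0.01 beside 0.54 with AKB, so its common direction rests on an estimate near 0. For AHNAK, a large scaffold protein, GMPR, which converts GMP to IMP, and FZD4, a Wnt receptor, the pyruvate estimates were 0.11, 0.12 and 0.10 against 0.63, 0.65 and 0.73 with AKB. In WAS, the Wiskott-Aldrich protein of blood cells, the call was lost without pyruvate replicates 3 and 4 (adjusted p = 0.0553).

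**Figure D5:**
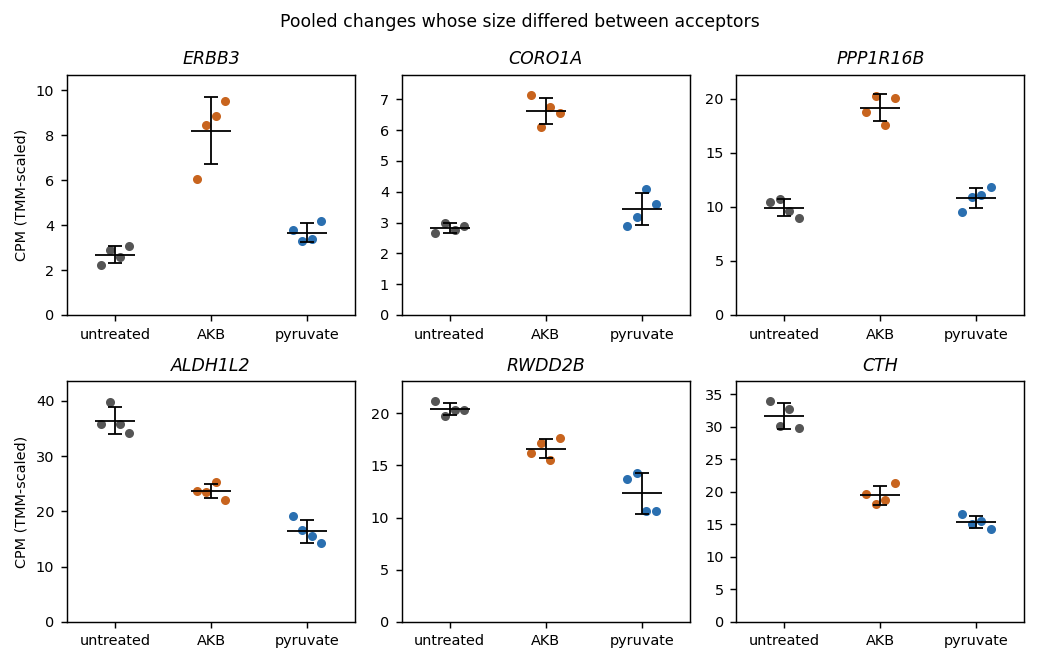
CPM (y axis, from 0) by library for 6 common genes whose change differed between acceptors, grouped as untreated, AKB and pyruvate, with bars for mean ± SD of 4. In the top row the AKB libraries are the highest (ERBB3 6.04 to 9.51 CPM), and in the bottom row the pyruvate libraries are the lowest (CTH 14.3 to 16.5 CPM).

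Lists of growth, cell cycle and stress genes outside amino acid metabolism had 0 to 4 members called. With 0.478% of all genes lower and 0.25% higher, a count of 0 in lists of this size is near the background and is no result about the lists. For MYC targets and ribosome biogenesis 0 of 36 were called, for entry into S phase 0 of 42, for mitosis 0 of 30 and for nucleotide synthesis 0 of 29. Other analyses called some of these. Among MYC targets 5 were lower without pyruvate replicates 3 and 4 together, by DESeq2's Wald test and with the GC-content offset, and 2 and 3 were lower without pyruvate replicates 1 and 2. In nucleotide synthesis 6 were lower with the GC-content offset, and 2 by DESeq2's Wald test and without pyruvate replicate 1, 2 or both 3 and 4. For entry into S phase 3 were lower with the GC-content offset, 2 by DESeq2's Wald test and without both pyruvate replicates 3 and 4, and 1 without pyruvate replicate 1 or 2. MYC itself had a log2 change of 0.09 (adjusted p = 0.533). Targets of p53 (17 tested), fatty acid synthesis (19), NAD synthesis and sirtuins (20), cytosolic chaperones (22) and interferon response genes (16) also had 0 called, and in each of these lists 1 to 3 members were called in at least 1 other analysis. Of 31 targets of hypoxia-inducible factor 2 fell (DDIT4 and STC2) and 2 rose (PFKFB4 and ENO2), with a median of −0.05. VEGFA, the growth factor on that list, had a log2 change of −0.25 (adjusted p = 0.144) and was called without pyruvate replicates 3 and 4, with a log2 change of −0.34 (adjusted p = 0.00227). Of 25 NRF2 targets only SLC7A11 was called, and of 21 mTORC1 regulators only DDIT4. Among 42 erythroid genes 1 was called, ALAD, an enzyme of haem synthesis, with a log2 change of 0.25 (adjusted p = 0.0469). Its call was lost when any 1 untreated or AKB library, or pyruvate replicate 3 or 4, was left out, and with the GC-content offset 5 other erythroid genes were lower. GATA1, the erythroid master factor, had a log2 change of 0.16 (adjusted p = 0.605), with 249 and 241 CPM in pyruvate replicates 3 and 4 and 121 to 169.6 in the other 10 libraries.

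The median transcript GC content was 54.2% for 31 of the higher genes, 47.0% for 63 of the lower genes and 48.1% for all genes tested, and the part of this in the calls was not tested. Under all 22 alternative analyses 34 of the 99 common genes kept their call and direction, 31 lower and 3 higher. The lower ones included 16 ATF4 targets, among them ATF4, PSAT1, ASNS, CHAC1, DDIT4, SLC7A11 and CTH, and also TXNIP, WARS1, HERPUD1 and XBP1. The higher ones were CCDC136, ECM1 and ENSG00000275619, so every other rise named above, PKM included, lost its call in at least 1 alternative.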

How the data were processed

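Poly(A)-selected mRNA of K562 cells was sequenced in 12 libraries, 4 per group. Groups and replicate numbers come from the sample labels. The authors deposited estimated counts per gene made with Salmon 1.2.1, with R 3.6.3 and DESeq2 1.26.0 also named, per the submitters' processing notes. Genome build, annotation and tool settings were not given in the sources used here. Its table holds 17786 genes, each with at least 10 counts over all libraries. Counts were rounded to whole numbers, which changed 0 values. The authors' 3 tables of comparisons were not used here.

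Genes were filtered with edgeR's filterByExpr (minimum count 10), scaled by TMM and fitted by edgeR's quasi-likelihood test (R 4.3.3, edgeR 4.0.16) with 1 term per group over all 12 libraries. The pooled contrast weighted the acceptors equally. All adjusted p-values are Benjamini-Hochberg values over the 13598 genes tested, from edgeR unless another tool is named. The steps were tested on simulated data. The total of 15353200 to 21301073 counts per library limits the precision of genes of a few CPM.

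The members, gene lists and naming rule were chosen with earlier results of these data known. The rule named the 12 largest rises and 12 largest falls among common genes with a symbol, at least 5 CPM and all 8 treated libraries on one side of the 4 untreated. It added up to 4 called members of each list, genes fixed by name, and up to 3 genes in each direction whose change differed between acceptors. A gene that this naming rule picks is not reported here. Other genes were named after their values were seen. Uncalled genes of a list are given for its other steps.

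Symbols were matched for 16060 identifiers (90.3%) and transcript GC content for 16904 (95.0%), from GENCODE 29 on GRCh38, which also gave the gene coordinates. The alternatives were other scalings and filters, DESeq2 1.42.0, limma-voom (limma 3.58.1), a replicate block, a fit with all treated libraries as 1 group, a GC-content offset, libraries left out, and an adjusted p below 0.01.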

Additional observations from a re-analysis of the deposited data

Results flagged for a closer look

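Within each group of 4, the library farthest out was compared with Dixon's 95% limit for its gap over the group's range. Of 324 groups tested 13 passed it, while chance alone passes about 1 in 20. Among lower genes, INHBE stood at 3.91 CPM in 1 pyruvate library with the next at 5.10, NDUFB2 at 85.4 CPM in 1 pyruvate library with the next at 97.8, and BLTP3A at 104 CPM in 1 pyruvate library with the next at 113. RUNX1 was at 84.5 CPM and XBP1 at 92.5 CPM in 1 AKB library each. DUSP16 reached 34.9 CPM in 1 pyruvate library, inside the untreated range. Among higher genes, HEXIM1 was at 63.4 CPM in 1 AKB library with the next at 72.6, and NDUFS5 at 153 CPM in untreated replicate 4 with the next at 135. Of genes fixed by name, DDIT3 was at 25.1 CPM and LDHA at 944 CPM in 1 untreated library each. Of identifiers without a symbol, ENSG00000275619 was at 0.0551 CPM and ENSG00000277781 at 0.603 CPM in 1 untreated library with the other 3 at 0, and ENSG00000236222 was at 3.51 CPM in 1 AKB library with the next at 0.803.

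Changes of 14 common genes differed between the acceptors by edgeR's quasi-likelihood test, and the 6 that the naming rule picked are given here. AKB minus pyruvate was 1.16 log2 units for ERBB3 (adjusted p = 0.00799), 0.94 for CORO1A and 0.82 for PPP1R16B, where the rise was larger with AKB. It was 0.53 for ALDH1L2, 0.44 for RWDD2B and 0.34 for CTH, where the fall was larger with pyruvate. These differences were not tested without pyruvate replicates 3 and 4 or with the GC-content offset.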

How the results depend on the processing

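Counts below are given in the order common higher, common lower, called in each acceptor higher, called in each acceptor lower, against 34, 65, 13 and 42 as reported. DESeq2's Wald test gave 365, 290, 58 and 97. The GC-content offset gave 346, 423, 68 and 185. Leaving out pyruvate replicates 3 and 4 together gave 126, 229, 5 and 60. With all treated libraries as 1 group the common counts were 15 and 48, and at an adjusted p below 0.01 they were 8 and 35. Leaving out 1 library at a time gave 6 to 268, 32 to 210, 1 to 73 and 22 to 69. For genes called in each acceptor, 1 higher gene was called without untreated replicate 1, 2 or 3, and 73 were called without pyruvate replicate 2. The cause of these shifts was not tested. DESeq2 size factors, library size alone, no filter, a minimum mean of 1 CPM and limma-voom stayed within 1.5 times of every reported count.

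Same-numbered libraries correlated at −0.16 to 0.292 after removing group means, above 0.1 in 6 of 12 pairs. Libraries with different numbers correlated at −0.322 to 0.281, and 6 of 12 libraries correlated best with their own number. These values do not settle whether same-numbered libraries belong together. The numbers were not used as pairs in the main fit. With the replicate block the counts were 36, 56, 12 and 35.

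For single genes, 2376 values were computed over 22 alternatives. Of these, 0 changed sign with a call in either fit, 1897 stayed on their side of the threshold and 475 missed the threshold of the pooled test. The 4 that newly passed it were in GDF15 and VEGFA, when GC content was offset or pyruvate replicates 3 and 4 were left out. Sign changes of uncalled genes, such as GATA1, LDHA and LDHB, are counted among the 1897. The log2 change of GATA1 was 0.16 as reported and −0.09 without pyruvate replicates 3 and 4. With the GC-content offset 8 common genes left the common response: SYT10, SSBP2, SDE2, ITPR3 and GMPR missed the threshold, and CORO1A, NAV1 and PPP1R16B no longer had the same direction with each acceptor. Without pyruvate replicates 3 and 4, WAS missed the threshold and NAV1 differed in direction. These genes were named after their values were seen. Depth limits genes such as TAPBP, WAS and SMOX, which lay below 6 CPM.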
